A study of Mus musculus with 6 samples.

Results

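The 10 genes described here are the receptors *Fgfr1*, *Fgfr2*, *Fgfr3* and *Fgfrl1*, the ligands *Fgf2*, *Fgf7* and *Fgf18*, and the feedback inhibitors *Spry1*, *Spry2* and *Spry4* of the fibroblast growth factor (FGF) pathway. They were chosen by gene symbol, through the Ensembl identifier of each row, and make up 10 of the 47729 genes in the table. The study sequenced RNA of the upper end of the tibia in 3 Control and 3 LS1 mice at 14 days after birth, with the proximal epiphyses of both legs pooled into 1 library per mouse. Control mice were random-bred animals of the ICR strain. LS1 is line 1 of the Longshanks mice, bred from the same kind of stock for a tibia that is long relative to body mass, so that LS1 stands for 1 selected line and the comparison cannot tell selection from drift in that line. The mice came from different families, carried no transgene and received no treatment, and their sex is not given in the labels. Each sample took in the growth plate with the metaphysis below it, the secondary ossification centre and the joint cartilage, and the labels give its tissues as bone, cartilage and marrow. The comparison of LS1 with Control asks which transcripts differ with the longer tibia.

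FGF ligands bind receptor tyrosine kinases at the cell surface together with heparan sulfate, a sugar chain carried by proteoglycans, and the bound receptors signal through adaptor proteins to the Ras and MAP kinase cascade. Signalling turns on ETS transcription factors and its own inhibitors, the Sprouty and Spred proteins and the MAP kinase phosphatases, which dampen the cascade. In the growth plate *Fgfr3* is expressed by proliferating chondrocytes and restrains their division and maturation, so that activating mutations shorten the limbs and loss of the gene lengthens them. *Fgfr1* marks hypertrophic chondrocytes and the perichondrium and *Fgfr2* the perichondrium and osteoblasts, while FGF18 from the perichondrium acts through *Fgfr3*.

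The libraries held 68803249 to 88745366 reads assigned to genes, and all 10 members had reads in every library. Values are normalized counts, that is, reads per gene divided by the size factor of the library. Among the libraries, LS1 replicate 3 lay apart from the other LS1 mice. On the first principal component, which held 35.1% of the variance, it was at -4.29, between the Control libraries at -41.5 to -22.1 and LS1 replicates 1 and 2 at 43.7 and 50.1. Without this library 0 of the 10 members passed the test, as with it. Its absence turned *Spry1* from a log2 fold change of 0.08 to -0.06 and *Spry2* from -0.03 to 0.05.

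No member of the group differed between LS1 and Control at the threshold. Of the 10 genes, 0 had an adjusted p under 0.05 in limma, against a background of 0.0725% of the 19308 genes tested. DESeq2 with default settings called 0 of the 10 (background 2.51%) and the quasi-likelihood test of edgeR called 0 of the 10 (background 0.0363%). Without adjustment, 0 of the 10 had a p under 0.05 in limma, where 12.9% of all genes did. On the log2 scale 7 members were higher and 3 lower in LS1, with a median difference of 0.11 beside 0.0054 over all genes tested. The LS1 libraries all lay above the Control libraries for 3 members, *Fgfr3*, *Fgfrl1* and *Fgf7*, where 10.3% of all genes did so, and all below them for 0 members, against 8.94% of all genes. All 10 members passed the filter on low counts. In RNA of a whole epiphysis, fewer cells of a type and less RNA per cell cannot be told apart, and this holds for every value below.

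**Figure D1:**
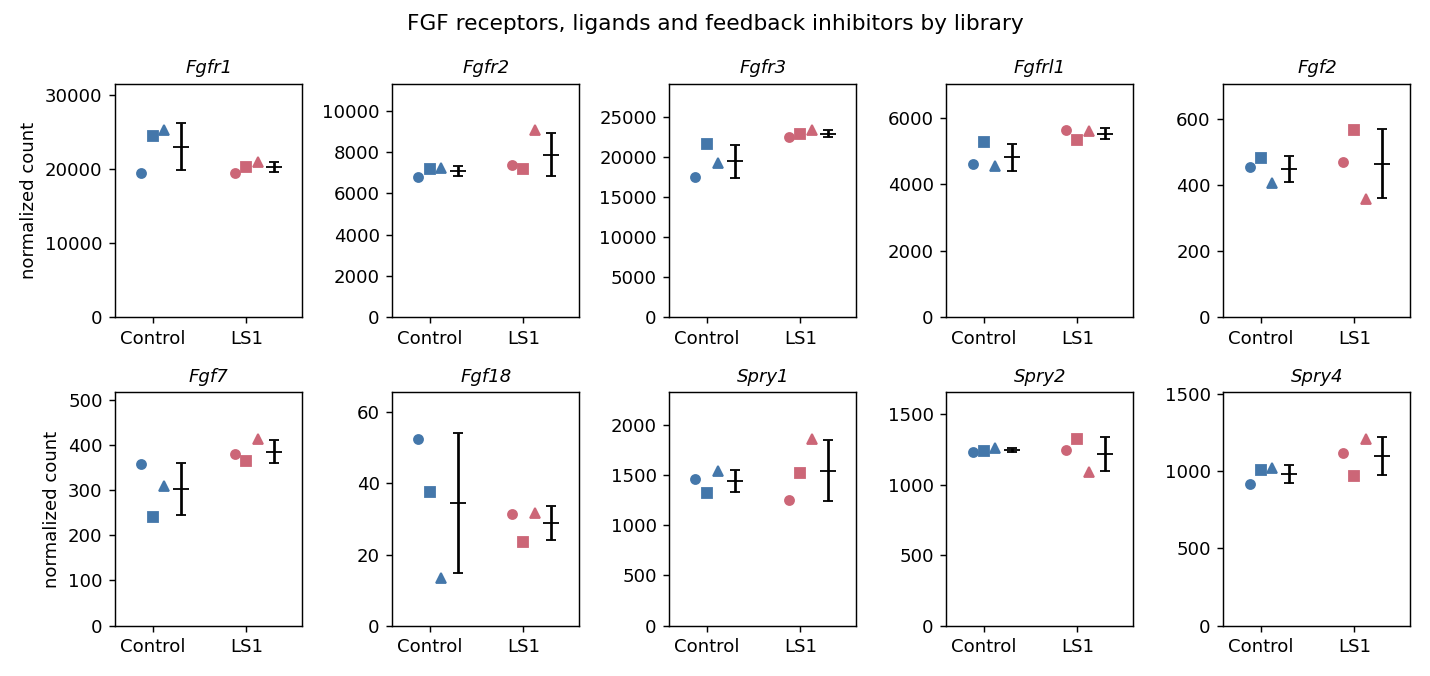
Normalized count (vertical axis, from 0, a scale per panel) of the 10 genes in each library. Blue symbols are Control and red symbols are LS1 mice, circles, squares and triangles are replicates 1, 2 and 3, and the black bar beside each group is the mean ± SD (n = 3). The red symbols lie wholly above the blue ones for *Fgfr3*, *Fgfrl1* and *Fgf7*, and the groups overlap for the other 7 genes.

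Per length of exon, the receptors were the most abundant members and the ligands the least. The level in TPM (a read count per exon length, scaled to a fixed sum over all genes of a library), averaged over the 6 libraries, was 124.6 for *Fgfr3*, 92.1 for *Fgfr1* and 78.2 for *Fgfrl1*, and the library ranges of *Fgfr3* and *Fgfr1*, and of *Fgfr1* and *Fgfrl1*, overlapped. Below them and with no overlap came *Fgfr2* at 30.5 TPM, whose range overlapped that of *Spry2* at 24.9 TPM, which in turn overlapped that of *Spry1* at 21.6 TPM. *Spry4* stood alone at 9.19 TPM. The ligands followed with *Fgf7* at 4.45 TPM and *Fgf2* at 2.84 TPM, which overlapped, and *Fgf18* at 1.12 TPM, below both. *Fgfr3* was above 93.6% of the genes tested and *Fgf18* above 14.3%. With the length of the longest annotated transcript in place of that of all exons the order was the same, but *Fgfr1* was at 140 TPM and *Fgfr2* at 55.2 TPM.

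**Figure D2:**
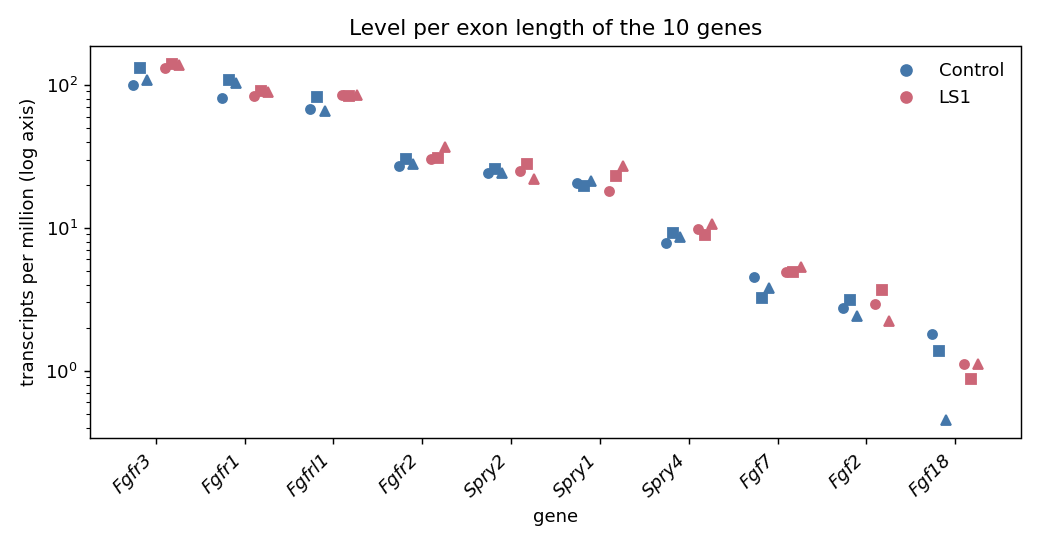
Level per exon length of the 10 genes in TPM (vertical log axis), ordered by the mean over the 6 libraries. Each symbol is 1 library, blue for Control and red for LS1. The receptors *Fgfr3*, *Fgfr1* and *Fgfrl1* form the upper group and the ligands *Fgf7*, *Fgf2* and *Fgf18* the lower one.

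*Fgfr3*, the receptor that restrains chondrocyte proliferation, lies on chromosome 5 (GRCm38, chr5:33721674-33737068, plus strand). The Control mice had 17501, 21597 and 19228 normalized counts and the LS1 mice 22434, 22854 and 23293. All LS1 mice were above all Control mice, and the LS1 libraries lay closer together than the Control libraries. The means were 19442 ± 2056 in Control and 22860 ± 429 in LS1 (SD, n = 3), a fold change of 1.18 with a 95% confidence interval of 0.972 to 1.43. The log2 fold change of 0.24 (SE 0.13) did not pass the test in limma (adjusted p = 0.458). It stayed between 0.17 and 0.32 when any library was left out, and the smallest adjusted p of any of the 20 fits, 0.284, was from the limma fit with a replicate block. The exons of *Fgfr3* overlap those of *G630022F23Rik* on the opposite strand, which had 30.3 to 94.0 normalized counts, and whether the reads were counted by strand is not given in the sources used here.

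*Fgfrl1*, a receptor that binds ligand but lacks the kinase domain, lies on the same chromosome (chr5:108692382-108706924, plus strand). The Control libraries held 4614, 5270 and 4539 normalized counts and the LS1 libraries 5623, 5322 and 5601. The groups did not overlap, although the highest Control library and the lowest LS1 library were almost level. The means were 4808 ± 402 and 5515 ± 168 (SD, n = 3), and the log2 fold change was 0.20 (SE 0.13, adjusted p = 0.526 in limma), with an interval of -0.07 to 0.48.

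The promoters of *Fgfr3* and *Fgfrl1* are shown because these are the receptors whose libraries did not overlap, and because the ETS factors that FGF signalling turns on bind a known motif. Each window runs from 250 bases before to 50 bases after a RefSeq start in GRCm38.p6, on the plus strand, with 2 starts for *Fgfr3*. Capitals mark a GC box, GGGCGG on either strand, or the ETS motif CCGGAAG on either strand, and the matches of the second *Fgfr3* window share 1 base.
Fgfr3, chr5:33721474-33721773: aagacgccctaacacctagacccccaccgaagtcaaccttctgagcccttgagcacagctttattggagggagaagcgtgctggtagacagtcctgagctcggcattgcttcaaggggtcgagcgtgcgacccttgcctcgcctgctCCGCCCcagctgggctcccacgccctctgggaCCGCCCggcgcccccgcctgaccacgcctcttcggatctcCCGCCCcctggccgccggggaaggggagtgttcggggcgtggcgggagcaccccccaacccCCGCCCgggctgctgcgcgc
Fgfr3, chr5:33722056-33722355: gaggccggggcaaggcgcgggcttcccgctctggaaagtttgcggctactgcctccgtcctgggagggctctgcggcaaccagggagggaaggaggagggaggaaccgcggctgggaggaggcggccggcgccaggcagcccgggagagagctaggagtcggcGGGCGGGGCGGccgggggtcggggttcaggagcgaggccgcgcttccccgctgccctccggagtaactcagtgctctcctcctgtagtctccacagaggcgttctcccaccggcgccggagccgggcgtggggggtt
Fgfrl1, chr5:108693979-108694278: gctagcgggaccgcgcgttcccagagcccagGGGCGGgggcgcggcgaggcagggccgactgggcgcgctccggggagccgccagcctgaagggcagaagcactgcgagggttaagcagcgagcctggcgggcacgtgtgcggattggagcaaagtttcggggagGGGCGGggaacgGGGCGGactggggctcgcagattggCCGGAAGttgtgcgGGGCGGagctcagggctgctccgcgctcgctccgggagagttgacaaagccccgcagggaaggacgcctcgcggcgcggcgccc
The first *Fgfr3* window held 4 GC boxes, the second held 2, and the *Fgfrl1* window held 4 GC boxes and 1 ETS motif. GC content was 69.7%, 73.0% and 73.7%. Of the 10 members, 8 had a promoter in the RefSeq table, with 9 windows in all, and 6 of the 9 held a GC box and 1 an ETS motif. Among all 32851 promoters of the same length, 35.7% held a GC box and 8.86% the ETS motif. The windows of *Fgf2*, *Fgf18* and *Spry1* held 1 GC box each and those of *Fgfr2*, *Fgf7* and *Spry2* held 0. These are matches of letters and were not tested against any measurement.

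*Fgfr1*, the receptor of hypertrophic chondrocytes and perichondrium, lies on chromosome 8 (chr8:25513654-25575718, plus strand). It had 19423, 24381 and 25218 normalized counts in Control and 19493, 20303 and 20922 in LS1. Control replicates 2 and 3 were above every LS1 library, and Control replicate 1 was below every LS1 library, so the groups overlapped. The means were 23007 ± 3132 and 20239 ± 717 (SD, n = 3), and the log2 fold change of -0.18 (SE 0.14, 95% interval -0.48 to 0.12) did not pass the test in limma (adjusted p = 0.614). The value was -0.29 without Control replicate 1 and -0.11 without Control replicate 3.

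*Fgfr2*, the receptor of perichondrium and osteoblasts, lies on chromosome 7 (chr7:130162451-133123350, minus strand). Its counts were 6819, 7198 and 7241 in Control and 7396, 7202 and 9064 in LS1, with LS1 replicate 3 above the other libraries and the rest within a narrow range. The means were 7086 ± 233 and 7888 ± 1024 (SD, n = 3), with a log2 fold change of 0.15 (SE 0.13, adjusted p = 0.671 in limma) that was 0.04 without LS1 replicate 3. In the annotation used here its record runs on over *Ctbp2* and shares an exon with it, so its level per length is less certain than those of the other receptors. *Fgfr4*, not a member and named after its values were seen, was scarce at 1.66 TPM, with 117 to 161 normalized counts in Control and 120 to 171 in LS1.

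The receptors were also set beside each other as proportions. *Fgfr3* made up 47.9%, 48.5% and 44.9% of the summed TPM of *Fgfr1* to *Fgfr4* in Control and 53.4%, 53.3% and 51.8% in LS1. *Fgfr1* made up 38.5%, 39.7% and 42.7% in Control and 33.7%, 34.3% and 33.7% in LS1. Every LS1 library thus held more *Fgfr3* and less *Fgfr1*, as a share, than every Control library. The ratio of *Fgfr3* to *Fgfr1* in TPM was 1.24, 1.22 and 1.05 in Control and 1.59, 1.55 and 1.54 in LS1, with means of 1.17 ± 0.105 and 1.56 ± 0.0264 (SD, n = 3) and a log2 difference of 0.41. This ratio was chosen after the values of its genes were seen, so it is given as a description with no test. It does not depend on the size factors, since both genes are read in the same library. With the longest transcript as the length, chosen after seeing the data, the ratio was 1.01 ± 0.0903 in Control and 1.34 ± 0.0227 in LS1 and the mean share of *Fgfr3* 42.5% and 48.0%, again without overlap. The share of *Fgfr2* was 12.0% ± 0.887 in Control and 12.6% ± 1.21 in LS1, with overlap, and the summed level of the 4 genes was 239.7 ± 30.8 TPM in Control and 257.9 ± 10.1 TPM in LS1 (SD, n = 3), also with overlap.

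**Figure D3:**
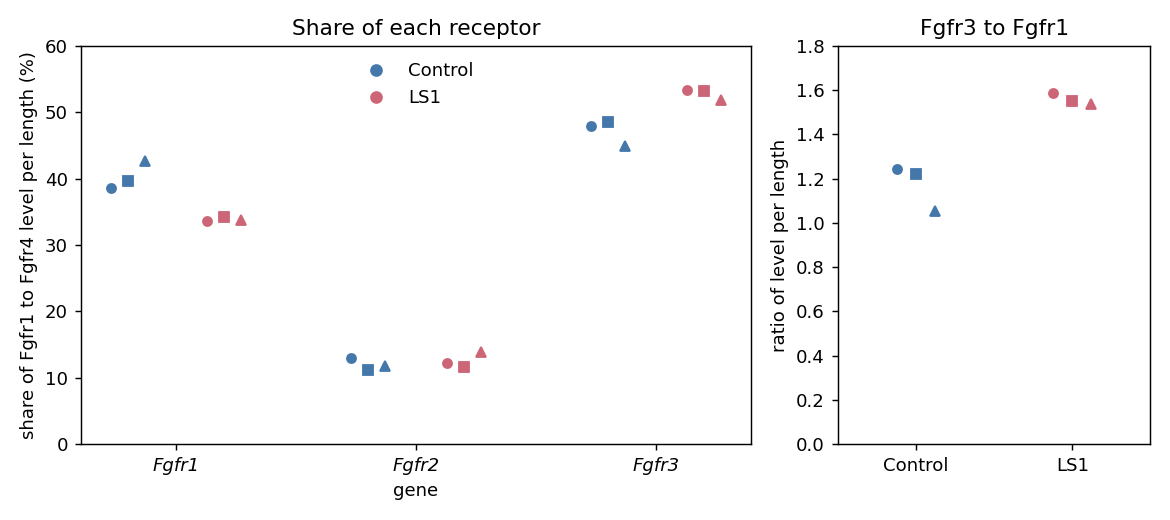
Left, share of each receptor in the summed TPM of *Fgfr1* to *Fgfr4* (percent, from 0); *Fgfr4*, at under 1%, is counted in the sum but not drawn. Right, ratio of *Fgfr3* to *Fgfr1* in TPM. Each symbol is 1 library, blue for Control and red for LS1. The LS1 libraries lie at 1.54 to 1.59 in the ratio and the Control libraries at 1.05 to 1.24.

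Among the ligands, *Fgf7*, a factor of mesenchymal cells that acts on an epithelial form of *Fgfr2*, was the one whose libraries did not overlap (chr2:126034658-126091185, plus strand). Its normalized counts were 357, 242 and 309 in Control and 379, 365 and 413 in LS1. The lowest LS1 library was close to the highest Control library. The means were 302 ± 58.0 and 386 ± 25.0 (SD, n = 3), a fold change of 1.29 with an interval of 0.919 to 1.81, and the log2 fold change of 0.37 (SE 0.22) did not pass the test in limma (adjusted p = 0.512).

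*Fgf2*, a ligand held in the cartilage matrix (chr3:37348346-37410108, plus strand), had 456, 483 and 407 normalized counts in Control and 471, 567 and 359 in LS1. The highest and the lowest library were both LS1 mice, replicates 2 and 3. The log2 fold change was 0.03 (SE 0.22, adjusted p = 0.968 in limma), and its interval of -0.45 to 0.52 leaves a change of that size in either direction possible. Its exons overlap those of *Nudt6* on the opposite strand, which had 34.5 to 57.5 normalized counts.

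*Fgf18*, the perichondrial ligand of *Fgfr3* (chr11:33117430-33147400, minus strand), was close to the filter with a mean of 32 reads. Its counts were 52.5, 37.7 and 13.3 in Control and 31.4, 23.5 and 31.7 in LS1. Control replicates 1 and 3 were the highest and the lowest library, with all LS1 mice between them. The log2 fold change was -0.06 with an SE of 0.51 (adjusted p = 0.972 in limma), its interval ran from -1.19 to 1.07, and it was 0.33 without Control replicate 1 and -0.62 without Control replicate 3. The interval of its fold, 0.438 to 2.09, leaves a change in either direction possible at this depth and spread. It is not a limit of detection, which was not computed.

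Of the secreted ligands, *Fgf1*, an acidic FGF that binds every FGF receptor, was by far the most abundant, at 19.6 TPM. It held 64.2% ± 3.54 of the summed ligand TPM in Control and 62.9% ± 3.50 in LS1 (SD, n = 3), and its log2 fold change was -0.08 (SE 0.14, adjusted p = 0.843 in limma). The sum of the secreted ligands was 31.0 ± 2.54 TPM in Control and 30.7 ± 2.37 TPM in LS1, with overlap. *Fgf7* held 12.5% ± 2.31 of it in Control and 16.6% ± 2.16 in LS1, without overlap, *Fgf2* held 8.86% and 9.52%, and *Fgf18* 3.81% and 3.39%, both with overlap.

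The feedback inhibitors *Spry1*, *Spry2* and *Spry4* encode Sprouty proteins, which are induced by the pathway and block it between the receptor and the MAP kinases. *Spry1* (chr3:37639947-37644598, plus strand) had 1462, 1319 and 1540 normalized counts in Control and 1249, 1517 and 1858 in LS1. The LS1 libraries held both the lowest and the highest value. The means were 1440 ± 112 and 1541 ± 305 (SD, n = 3), with a log2 fold change of 0.08 (SE 0.18, interval -0.31 to 0.47, adjusted p = 0.880 in limma).

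*Spry2* (chr14:105891947-105896819, minus strand) was the most abundant of the Sprouty genes per length and varied least among the Control mice. It had 1233, 1239 and 1260 counts in Control, a mean of 1244 ± 14.0, and 1248, 1325 and 1089 in LS1, a mean of 1221 ± 120 (SD, n = 3). LS1 replicate 2 was the highest and LS1 replicate 3 the lowest of the 6 libraries. The log2 fold change was -0.03 (SE 0.16, adjusted p = 0.952 in limma), with an interval of -0.38 to 0.31.

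*Spry4*, on chromosome 18, had 914, 1009 and 1021 counts in Control and 1115, 969 and 1207 in LS1. LS1 replicates 1 and 3 were above all Control libraries and LS1 replicate 2 was within their range. The log2 fold change was 0.16 (SE 0.17, interval -0.21 to 0.52, adjusted p = 0.723 in limma). The summed level of *Spry1* to *Spry4* was 54.1 ± 1.05 TPM in Control and 57.9 ± 3.80 TPM in LS1 (SD, n = 3), with overlap. Its make-up also overlapped between the groups, with *Spry2* at 45.7% and 43.3%, *Spry1* at 37.9% and 38.9%, and *Spry4* at 15.8% and 17.0% in Control and LS1.

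The rest of the pathway was read from a list of 82 further genes in 8 classes by role, of which 68 passed the filter. In limma 0 of the 68 were called, in edgeR 0, and in DESeq2 1, beside 2.51% of all genes in DESeq2. Without adjustment, 9 (13.2%) had a p under 0.05 in limma, beside 12.9% of all genes, 6 of them higher and 3 lower in LS1. On the log2 scale 48 were higher and 20 lower, with a median of 0.14 beside 0.0054 over all genes tested. The LS1 libraries lay above all Control libraries for 9 genes (13.2%, beside 10.3% of all genes) and below them for 4 (5.88%, beside 8.94%). The 14 genes under the filter were *Fgf4*, *Fgf5*, *Fgf6*, *Fgf8*, *Fgf10*, *Fgf12*, *Fgf15*, *Fgf16*, *Fgf17*, *Fgf20*, *Fgf21*, *Fgf22*, *Fgfbp1* and *Kl*, and were not compared.

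The heparan sulfate genes, which encode the proteoglycans and the enzymes that build and trim their chains, had 0 of 18 called in limma or edgeR. DESeq2 called 1 of them, beside 2.51% of all genes. An unadjusted p under 0.05 in limma was held by 6 of 18 (33.3%), beside 12.9% of all genes. Of 18 listed and tested, 16 were higher and 2 lower in LS1. Their median on the log2 scale was 0.20, with 4 (22.2%) without overlap and higher, beside 10.3% of all genes, and 1 (5.56%) without overlap and lower, beside 8.94%. *Gpc3*, a glypican attached to the cell surface, had 1624, 1461 and 1279 normalized counts in Control and 2370, 2176 and 1937 in LS1. Its groups were well apart, and the log2 fold change was 0.57 (SE 0.16, interval 0.23 to 0.92). The adjusted p was 0.229 in limma and 0.0484 in DESeq2, so that *Gpc3* rose by the latter test but not by the former, and without Control replicate 1 the adjusted p in DESeq2 was 0.0565. *Gpc6*, another glypican, had 5411, 5397 and 4034 counts in Control and 8526, 6340 and 6083 in LS1 (log2 fold change 0.49, SE 0.17, adjusted p = 0.285 in limma). *Sdc2*, a transmembrane syndecan, had 13452, 11983 and 12369 counts in Control and 20818, 14497 and 18174 in LS1 (log2 fold change 0.49, SE 0.15, adjusted p = 0.255 in limma). Both were higher in every LS1 library than in every Control library. In the other direction, *Hs6st1*, an enzyme that adds sulfate to heparan chains, had 5106, 4523 and 5496 counts in Control and 2437, 3962 and 3908 in LS1, without overlap (log2 fold change -0.58, SE 0.19, adjusted p = 0.269 in limma). *Hs6st2*, an enzyme of the same kind named after its values were seen, pointed the opposite way with overlap, at a log2 fold change of 0.76 (SE 0.30, interval 0.09 to 1.42, adjusted p = 0.329 in limma). *Gpc1*, the most abundant of the class at 307 TPM, had a log2 fold change of 0.23 (adjusted p = 0.633 in limma) with overlap, which was 0.03 without LS1 replicate 3. *Sulf2*, a sulfatase that trims the chains and was chosen after its values were seen, had a log2 fold change of 0.37 (adjusted p = 0.325 in limma) without overlap.

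Of the remaining secreted ligands, 4 were tested, 1 higher and 3 lower in LS1, with a median of -0.56. *Fgf3*, a ligand known from inner ear development, had 37.3, 43.2 and 47.6 normalized counts in Control and 16.2, 21.8 and 23.3 in LS1. Its groups did not overlap, its mean was 31 reads, and the log2 fold change of -1.04 (SE 0.39) had an adjusted p of 0.310 in limma. It was the only 1 of the 4 (25%) without overlap, beside 8.94% of all genes without overlap and lower. The intracellular FGF-like genes, led by *Fgf13* with a log2 fold change of 0.28 (adjusted p = 0.705 in limma), had 2 higher and 1 lower of 3 tested. The coreceptors and binding proteins, led by *Flrt2* with a log2 fold change of 0.01 (adjusted p = 0.984 in limma), had 5 higher of 5 tested, and the groups overlapped for each.

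The transducers, from the adaptors *Frs2* and *Grb2* to the kinase *Mapk3*, had 14 higher and 8 lower of 22 tested, with a median of 0.09. *Mapk3* (ERK1), the most abundant at 143 TPM, had a log2 fold change of -0.07 (adjusted p = 0.870 in limma). *Nras* and *Map2k1*, steps of the Ras cascade chosen after their values were seen, did not overlap between the groups and had log2 fold changes of 0.31 and 0.27, with adjusted p of 0.357 and 0.395 in limma. Of the 22 transducers, 3 (13.6%) were without overlap and higher in LS1, beside 10.3% of all genes, and 0 without overlap and lower, beside 8.94%.

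Beyond the members, the feedback inhibitors had 6 higher and 2 lower of 8 tested, with a median of 0.16. *Spred1*, at a mean of 52.5 TPM almost level with *Dusp6* at 52.2 TPM, had a log2 fold change of 0.29 (adjusted p = 0.440 in limma) with overlap. *Dusp6*, the ERK phosphatase most often read as a gauge of FGF signalling and named here after its values were seen, had 3829, 3660 and 4069 counts in Control and 3950, 4069 and 3752 in LS1. These groups lay almost on top of each other, and the interval of the log2 fold change of 0.03 ran from -0.25 to 0.30. *Il17rd* (Sef), also named after its values were seen, had a log2 fold change of 0.47 (adjusted p = 0.386 in limma) without overlap. It was the only 1 of the 8 (12.5%) without overlap, beside 10.3% of all genes without overlap and higher.

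The transcriptional targets had 3 higher and 4 lower of 7 tested, with a median of -0.03. *Etv5*, an ETS factor, had 2346, 2377 and 1905 normalized counts in Control and 1816, 1516 and 1660 in LS1. Every LS1 mouse was below every Control mouse, and the log2 fold change of -0.41 (SE 0.16, interval -0.75 to -0.06) had an adjusted p of 0.316 in limma. The ETS factors *Etv1* and *Etv4*, named after their values were seen, overlapped between the groups. Their log2 fold changes were 0.25 and -0.08, with adjusted p of 0.721 and 0.932 in limma. *Cdkn1a*, the cell cycle inhibitor p21 and the most abundant of the class at 107 TPM, had a log2 fold change of 0.02 (adjusted p = 0.972 in limma). *Egr1* and *Snai1*, chosen after their values were seen, did not overlap and pointed in opposite directions, at 0.22 and -0.20. Their adjusted p was 0.496 and 0.649 in limma. Of the 7 targets, 1 (14.3%) was without overlap and higher in LS1, beside 10.3% of all genes. Without overlap and lower were 2 (28.6%), beside 8.94% of all genes.

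**Figure D4:**
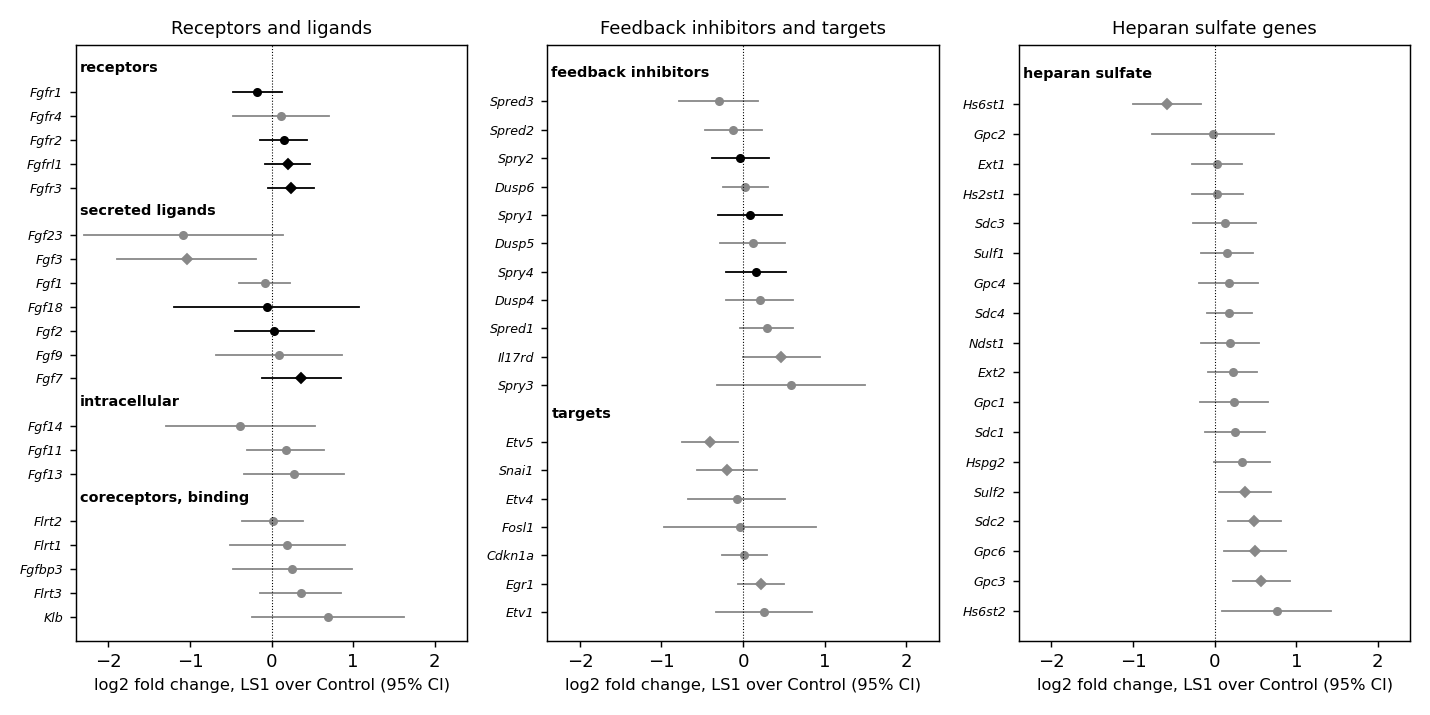
Log2 fold change of LS1 over Control with its 95% confidence interval (horizontal axis) for 56 tested genes of the pathway, members included and the transducers left out, grouped by role. Black marks are the 10 members, grey marks the other genes, and diamonds are genes whose groups do not overlap. Most marks lie near 0, and *Fgfr3* and *Fgfrl1* are the highest of the receptors.

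Lists of marker genes show which tissues the samples held. Each of the 12 marker lists was present, with 0 listed genes in the table at 0 in every library, and the labelled bone, cartilage and marrow were each represented. Over all genes tested, 50.7% were higher in LS1 and 12.9% had an unadjusted p under 0.05 in limma. Limma called 0.0725% of all genes and DESeq2 2.51%. The 16 chondrocyte markers had 14 higher and 2 lower in LS1, with a median of 0.49 on the log2 scale. Limma called 0 of them, 9 had an unadjusted p under 0.05 in limma, and DESeq2 called 6. Their summed level was 16202 to 18990 TPM in Control and 21848 to 25700 TPM in LS1. The 7 markers of tendon and perichondrium had 6 higher and 1 lower, with sums of 890 to 984 TPM and 1057 to 1351 TPM. The 10 osteoblast and osteocyte markers had 4 higher and 6 lower, a median of -0.11, and sums of 31226 to 35198 TPM in Control and 28525 to 31189 TPM in LS1. The 9 erythroid markers found in the table were lower in 9 of 9, with 2 called lower in limma, and their sums were 86751 to 109147 TPM in Control and 44671 to 53683 TPM in LS1. The part of these lists in the values of the members was not tested.

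The remaining lists are given by their counts. The 5 hypertrophic markers had 3 higher and 2 lower, with sums of 10411 to 15605 TPM in Control and 13446 to 15263 TPM in LS1. Muscle markers were lower in 8 of 8 tested (median -0.79) and B cell markers in 7 of 8 (median -0.57). Macrophage markers were higher in 8 of 8 (median 0.38), neutrophil markers in 8 of 9 (median 0.23), osteoclast markers in 5 of 6 (median 0.05) and endothelial markers in 4 of 6 (median 0.08), and the interferon-stimulated genes in 10 of 10 (median 1.96). The summed level of the interferon-stimulated genes was 352, 736 and 168 TPM in LS1 replicates 1, 2 and 3 and 119 to 202 TPM in Control, so that LS1 replicate 3 lay within the Control range. In each of these lists 0 genes were called in limma, while DESeq2 called 1 each in the hypertrophic, muscle, B cell and macrophage lists, 2 in the interferon list and 0 in the rest. An unadjusted p under 0.05 was held in limma by 6 B cell genes, 2 each of the hypertrophic, muscle, macrophage and neutrophil genes, 1 each of the endothelial and interferon genes and 0 osteoclast genes. Of all genes, 2.51% were called in DESeq2 and 12.9% had such a p in limma.

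Whether *Fgfr3* was higher in LS1 relative to marker genes of the same library depended on the list used. On the log2 scale *Fgfr3* itself was 0.24 higher in LS1 than in Control. The mean log2 level of the chondrocyte list was higher by more, 0.42, so that *Fgfr3* relative to it must be lower on average. Relative to this mean, *Fgfr3* was at -1.37 ± 0.143 in Control and -1.55 ± 0.136 in LS1 (SD, n = 3) on the log2 scale, with overlap, and *Fgfrl1* at -3.39 and -3.60, also with overlap. *Fgfr1* was at -1.13 ± 0.241 in Control and -1.73 ± 0.157 in LS1, with every LS1 library below every Control library. Relative to the osteoblast and osteocyte list, *Fgfr3* and *Fgfrl1* were higher in LS1 by 0.47 and 0.43 without overlap, and *Fgfr1* differed by 0.06 with overlap. These values were computed after the values of the lists had been seen and are descriptions with no test. The tendon and perichondrium list was also higher in every LS1 library than in every Control library, and no receptor level relative to it was computed.

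**Figure D5:**
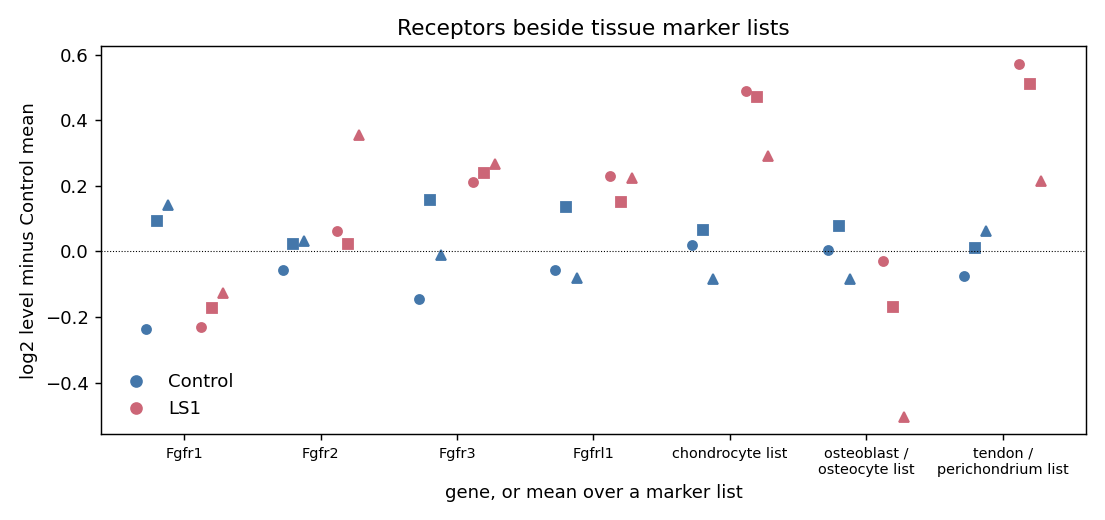
Log2 level of the 4 receptors, and mean log2 level of 3 marker lists, minus the Control mean (vertical axis), in each library. Blue symbols are Control and red symbols are LS1 mice, and circles, squares and triangles are replicates 1, 2 and 3. The chondrocyte list and the tendon and perichondrium list lie higher in every LS1 library than in every Control library, as do *Fgfr3* and *Fgfrl1*, while *Fgfr1* overlaps.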

How the data were processed

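RNA was extracted from the pooled proximal tibial epiphyses of each mouse and sequenced on the SOLiD platform, 1 library per mouse, 3 mice per group. Mapping to GRCm38 by the authors used HISAT2 2.0.2, and reads were assigned to the genes of Ensembl release 84 by featureCounts 1.4.6 before their analysis in DESeq2. The deposited values are a signal per gene, the read count divided by 1 size factor per library. Reads were recovered by dividing each value by that of 1 read (0.870 to 1.11), and 100% of values came out whole in each library. The value of 1 read in Control replicate 1, at 1.01, was the nearest to 1.

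A gene was tested where its recovered reads averaged 20 or more (19308 of 47729), and the groups were compared on log2(value + 1) with limma 3.58.1 in R 4.3.3, using a mean-variance trend, robust moderation and Benjamini-Hochberg adjustment over all of them at a threshold of 0.05. Fold changes are on this scale. The fit was also run on simulated counts whose changes were larger than the estimates of the members. That run does not show how well changes of the size seen here are detected. edgeR 4.0.16 and DESeq2 1.42.0 on the recovered reads were alternatives, as were other pseudocounts, filters, scalings and the omission of each library. Symbols, coordinates and exon lengths came from GENCODE M21 (99.1% of identifiers matched), and TPM from recovered reads per exon length. TPM within a library sums to a fixed total, so it was used for levels and shares and not for tests. Promoters came from RefSeq.

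The members and lists were chosen with earlier results of these data known. Beside the members, the rule named the pathway genes called by limma or DESeq2, the most abundant of each class by mean TPM, and over the whole pathway up to 3 in each direction without overlap. Others are given as chosen after their values were seen. Replicates are separate mice. Some genes of the pathway list are counted but not reported by name here.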

Additional observations from a re-analysis of the deposited data

How the results depend on the processing

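Across the 19 alternatives, 0 of the 10 members were called in any. The count of all genes called, 14 in the reported comparison (2 higher), was 45 for all genes with at least 1 read, 9 with a mean of at least 100 reads, 7 without robust moderation, 8 with limma-voom, 7 with edgeR and 456 with DESeq2 (276 higher). Without Control replicate 1 it was 5 with edgeR and 242 with DESeq2, both added after seeing the data. Leaving out each library gave 5 (without Control replicate 2) to 324 (without LS1 replicate 3, 226 higher), with 9 without Control replicate 1 and 46 without LS1 replicate 1. Calls in the pathway numbered 0 in the reported comparison, 1 with DESeq2 (*Gpc3*), and 0 to 1 when libraries were left out, the 1 being without LS1 replicate 3.

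Of the log2 fold changes of the 23 genes named by rule under the alternatives, 416 kept their direction and call, 18 reversed and 1 (*Gpc3*) passed the threshold. None of the reversed values passed it. Of these 23 genes, the ranges over left-out libraries that crossed 0 were -0.056 to 0.062 for *Cdkn1a*, -0.62 to 0.33 for *Fgf18*, -0.12 to 0.21 for *Fgf2*, -0.17 to 0.13 for *Flrt2*, -0.22 to 0.0022 for *Mapk3*, -0.062 to 0.22 for *Spry1* and -0.093 to 0.048 for *Spry2*. With limma-voom *Flrt2* was at -0.0013. Without Control replicate 1, edgeR and DESeq2 gave -0.074 and -0.065 for *Cdkn1a* and 0.16 and 0.17 for *Fgf18*. The cause was not tested.

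The first letter of the sample names is shared between the groups. With it as a replicate block 12 genes were called, 4 of them higher, and 0 members. Deviations of same-letter samples correlated at 0.0536, 0.0211 and 0.224, and not every sample correlated best with its own letter, so the letters were not taken as pairs.

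With 3 mice a group, the upper 95% limits of the members other than *Fgf18* allow an increase of 1.09-fold (*Fgfr1*) to 1.81-fold (*Fgf7*). Their lower limits ran from 0.719-fold (*Fgfr1*) to 0.972-fold (*Fgfr3*), so decreases are possible too.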
